A study of Mus musculus with 12 samples.

Results

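Bile acid handling in the ileum was followed through 10 genes of the ileal bile acid and FXR axis: Slc10a2, Fabp6, Slc51a and Slc51b for uptake, binding and export, Nr1h4, Nr0b2, Fgf15 and Klb for the FXR signal, and Cyp27a1 and Acox2 for side-chain oxidation. The genes were chosen by name, with earlier results of these data known. Each was matched to 1 Ensembl identifier, so that they made up 10 of the 54838 genes in the deposited count table. Adult female C57BL/6J mice drank normal water or 25 mM ZnSO4 for 7 days, were then injected with 200 µg of the synthetic glucocorticoid dexamethasone (Dex) in PBS or with PBS alone, and the ileum was taken 2 h later. The 4 groups, water + PBS, water + Dex, ZnSO4 + PBS and ZnSO4 + Dex, held 3 mice each, with 1 RNA-seq library per mouse. The comparisons were the effect of Dex within mice on water and within mice on ZnSO4, the effect of ZnSO4 within PBS and within Dex mice, and the interaction of both treatments.

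Conjugated bile acids are reclaimed in the terminal ileum: SLC10A2 carries them across the brush border, FABP6 binds them in the enterocyte, and the heteromer of SLC51A and SLC51B releases them towards the portal blood. Inside the cell they activate FXR, the nuclear receptor encoded by Nr1h4, which is known to induce Fabp6, Slc51a, Slc51b, the corepressor SHP (Nr0b2) and the hormone FGF15. FGF15 travels to the liver, where it acts on FGFR4 with its coreceptor beta-klotho (Klb) and lowers bile acid synthesis. CYP27A1, a mitochondrial sterol 27-hydroxylase, and ACOX2, a peroxisomal oxidase, act on the side chain of bile acid precursors.

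Between 10760132 and 11827487 reads per library were counted on genes. Values are normalised counts, which are reads scaled to a mean effective library size of 11377723, and changes are given as LFC, the log2 fold change of edgeR with its SE. A gene was called regulated at an adjusted p under 0.05 and an LFC beyond 0.8 in size. All 10 genes passed the filter on low counts, which left 15938 genes. A pair of libraries stood apart in the enterocyte or the hepatocyte markers. In ZnSO4 + Dex replicate 2 the summed level of 9 general enterocyte markers (Vil1, Krt20, Epcam and others, none at 0 in all libraries) was 10290 CPM (reads scaled to library size), against 17718 to 23470 CPM in the other 11 libraries. In water + Dex replicate 3 the sum of 8 hepatocyte markers (Alb, Tat and others) was 521 CPM. It was 274 CPM in ZnSO4 + Dex replicate 2 and 14.2 to 104 CPM in the 10 other libraries. Libraries also differed in other cell types. The sum of 8 B cell markers was 649 CPM in water + PBS replicate 2 and 486 CPM in ZnSO4 + PBS replicate 2. In the 10 other libraries it was 12.3 to 235 CPM. Since bulk tissue was sequenced, fewer cells of a type cannot be told apart from less RNA per cell. The p-values measure the spread between these mice.

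The genes of ileal bile acid uptake, binding and export were among the well expressed genes of this tissue. In the water + PBS mice Fabp6 reached 29435 ± 3575 TPM (a scale per transcript length and library size; SD, n = 3) and ranked 3 among all genes. Slc51b followed with 757 ± 130 TPM. Slc10a2 stood at 557 ± 10.7 TPM and Slc51a at 522 ± 79.4 TPM, and these neighbours overlapped between mice. Nr1h4 lay below them at 238 ± 28.5 TPM. Fgf15, at 38.9 ± 41.0 TPM, overlapped Cyp27a1, at 21.6 ± 5.46 TPM, because its mice ranged from 4.82 to 84.4 TPM. The low end was formed by Acox2 with 6.00 ± 1.28 TPM, Nr0b2 with 1.62 ± 2.31 TPM and Klb with 0.779 ± 0.102 TPM, of which Nr0b2 and Klb overlapped. Slc51b ranked 126 among all genes, Slc10a2 178, Slc51a 192 and Nr1h4 506, whereas Klb ranked 16357. Of 10 markers of distal (ileal) enterocytes that are not among these genes, such as Cubn and Mep1a, none was at 0 in all libraries, and their summed level was 6553 to 14457 CPM over the 12 mice.

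**Figure D1:**
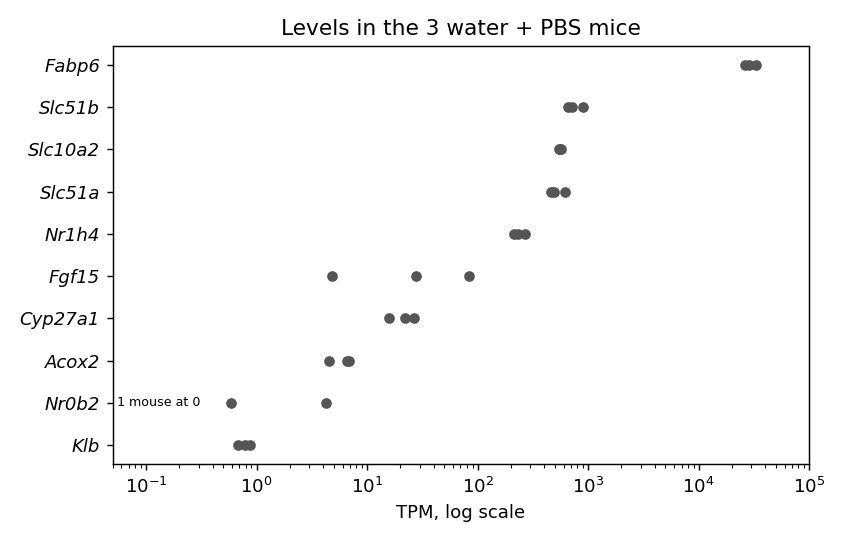
Level of each gene in the 3 water + PBS mice, in TPM on a log axis, 1 point per mouse, in order of the mean. Fabp6 stands highest, at 29435 TPM on average, and the points of Fgf15 spread from 4.82 to 84.4 TPM. Nr0b2 had no read in 1 mouse, which is written beside its row since a log axis has no 0.

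All 10 genes are protein-coding genes, placed here on GRCm38, the assembly also called mm10. The uptake gene Slc10a2 lies on chromosome 8 at 5083219 to 5105351, Fabp6 on chromosome 11 at 43596049 to 43601540, Slc51a on chromosome 16 at 32474504 to 32487879 and Slc51b on chromosome 9 at 65412714 to 65422955. Nr1h4 spans 89454234 to 89533585 on chromosome 10, Nr0b2 133553376 to 133556536 on chromosome 4, Fgf15 144896531 to 144900953 on chromosome 7 and Klb 65348314 to 65384007 on chromosome 5. Cyp27a1 lies on chromosome 1 at 74713574 to 74737892 and Acox2 on chromosome 14 at 8225511 to 8259353. Counts of these genes cover their exons. Exons of genes on the opposite strand overlap 25.7% of the exon length of Fgf15, 17.7% of Slc51a (Pcyt1a) and 12.8% of Slc51b (Rasl12), and the strand setting of the counting was not given. The genes opposite Fgf15 had at most 18 reads in any library, Rasl12 had 28 to 78 and Pcyt1a had 957 to 1895.

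Promoter sequences from RefSeq (GRCm38.p6) were matched to 9 of the 10 genes, not to Fgf15, with a pair of overlapping windows for Acox2. The 250 bases before the start are shown for the genes that stood higher after Dex in both waters (Slc10a2, Nr1h4 and Cyp27a1) and for the partners Slc51a and Slc51b, whose levels moved together from mouse to mouse. They were read for the palindromic element of the glucocorticoid receptor (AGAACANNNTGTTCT), for its repeat unit AGAACA, for the inverted repeat that FXR binds (AGGTCANTGACCT) and for its repeat unit AGGTCA, on both strands. The unit AGGTCA is contained in the longer FXR repeat. Capitals mark the matches, each sequence runs 5′ to 3′ on the strand of its gene, and all but Cyp27a1 lie on the minus strand.
Slc10a2 (chr8:5105288-5105537): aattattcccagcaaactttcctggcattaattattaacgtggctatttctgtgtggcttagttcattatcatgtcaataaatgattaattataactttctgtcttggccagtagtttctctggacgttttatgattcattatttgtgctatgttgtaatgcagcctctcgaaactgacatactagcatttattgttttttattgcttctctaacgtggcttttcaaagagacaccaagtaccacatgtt
Nr1h4 (chr10:89506659-89506908): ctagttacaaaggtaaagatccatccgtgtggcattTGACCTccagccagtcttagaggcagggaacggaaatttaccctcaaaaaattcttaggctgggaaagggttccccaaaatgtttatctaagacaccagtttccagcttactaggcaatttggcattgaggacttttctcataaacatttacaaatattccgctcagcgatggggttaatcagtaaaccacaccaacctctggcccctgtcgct
Cyp27a1 (chr1:74713285-74713534): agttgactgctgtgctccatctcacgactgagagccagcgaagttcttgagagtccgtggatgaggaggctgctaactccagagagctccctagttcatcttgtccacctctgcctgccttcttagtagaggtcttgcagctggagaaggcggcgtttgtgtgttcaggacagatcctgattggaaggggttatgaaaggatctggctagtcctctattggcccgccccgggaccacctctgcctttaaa
Slc51a (chr16:32487880-32488129): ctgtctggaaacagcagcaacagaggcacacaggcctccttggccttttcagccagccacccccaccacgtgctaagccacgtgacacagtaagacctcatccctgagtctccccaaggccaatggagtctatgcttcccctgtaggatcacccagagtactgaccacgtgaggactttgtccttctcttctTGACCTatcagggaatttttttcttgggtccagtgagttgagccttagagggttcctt
Slc51b (chr9:65422774-65423023): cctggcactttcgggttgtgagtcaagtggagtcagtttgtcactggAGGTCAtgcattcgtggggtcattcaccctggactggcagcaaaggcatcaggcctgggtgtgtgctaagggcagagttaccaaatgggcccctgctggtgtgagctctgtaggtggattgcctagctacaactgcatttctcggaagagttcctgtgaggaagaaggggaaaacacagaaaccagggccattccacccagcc
The unit AGGTCA was found in 3 of the 9 genes, on the minus strand of the gene at -58 to -53 from the start in Slc51a and at -214 to -209 in Nr1h4, and on its plus strand at -203 to -198 in Slc51b. The same unit is held by 14.0% of all 32851 promoters of this length. The unit AGAACA, held by 16.1% of them, and both long elements, held by 0.0091% and 0.0061%, had no match in these windows, which says only that these letters are not there. Of the windows shown, those of Slc10a2, Slc51b and Nr1h4 reach into the span given for the gene, that of Nr1h4 with all its bases.

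Dex raised Slc10a2, the gene for bile acid uptake, and did so in mice on water and on ZnSO4. Of the 10 genes, 3 were upregulated by Dex in water mice (Slc10a2, Cyp27a1 and Acox2) and 2 in ZnSO4 mice (Slc10a2 and Cyp27a1), beside 2.79% and 3.41% of all genes tested. None was downregulated by edgeR or DESeq2 in either, beside 1.64% and 2.4% of all genes. As the genes were chosen with earlier results known, these shares are no test of the 10 genes as a set. At an unadjusted p under 0.05 edgeR gave 4 of the 10 genes in each of these comparisons, beside 22.7% and 26.3% of all genes. Tested against an LFC of 0.8 instead of 0 (glmTreat), Cyp27a1 alone was called in both. The Dex comparisons in water and in ZnSO4 mice compare different libraries, but both come from 1 fit that shares its estimate of the spread.

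The levels of Slc10a2 in the 3 water + PBS mice were 10972, 10263 and 10698 normalised counts. After Dex they were 20028, 19946 and 20285. In the ZnSO4 + PBS mice the levels were 9177, 9656 and 11529. In the ZnSO4 + Dex mice they were 25235, 13302 and 29253. Every Dex mouse stood above every PBS mouse, and the lowest Dex value was that of ZnSO4 + Dex replicate 2, the library with the low enterocyte markers. The LFC was 0.92 ± 0.23 (SE) in water mice (1.89-fold, 95% interval 1.34 to 2.66, adjusted p = 0.0238) and 1.16 ± 0.23 in ZnSO4 mice (2.23-fold, 1.58 to 3.15, adjusted p = 0.00518). The call in water mice was lost in edgeR when any of the 6 water libraries was left out, with an LFC of 0.89 to 0.94 and an adjusted p of 0.0650 to 0.0822. Without ZnSO4 + Dex replicate 2 the adjusted p was 0.000145 in water mice and 1.18e-05 in ZnSO4 mice, where the LFC was then 1.43. With only the ZnSO4 groups in the fit, the adjusted p in ZnSO4 mice was 0.0547. Divided by the enterocyte marker sum, Slc10a2 stood at 26595, 25278 and 27066 in the ZnSO4 + Dex mice, against 9265 to 12252 in the ZnSO4 + PBS mice. In water mice the enterocyte marker sum was itself higher after Dex, at 22288 to 23470 CPM against 19727 to 20631 CPM, and so was the sum of the 10 distal enterocyte markers, at 10478 to 10880 CPM against 7488 to 9584 CPM, with no overlap in either. Divided by the enterocyte marker sum, Slc10a2 stood at 16618 to 17571 in the water + Dex mice against 9994 to 10876 in the water + PBS mice. With counts scaled to these markers the LFC of Slc10a2 in water mice was 0.73 (adjusted p = 0.00824), short of the cut-off on size.

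FABP6 is the main bile acid binding protein of the ileal enterocyte, and its gene took up more reads than any other gene of the axis. Fabp6 stood at 59775, 62148 and 72351 normalised counts in the water + PBS mice and at 66635, 85855 and 68366 in the water + Dex mice. The ZnSO4 + PBS mice had 88620, 48385 and 40672, and the ZnSO4 + Dex mice 60091, 43317 and 60452. The groups overlapped under Dex in both waters. The fold was 1.14 in water mice (95% interval 0.750 to 1.72, adjusted p = 0.744) and 0.922 in ZnSO4 mice (0.608 to 1.40, adjusted p = 0.835), intervals that leave room for a change in either direction.

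Neither partner of the export heteromer was called after Dex, and a difference between the partners was not tested. Slc51b stood at 2217, 2270 and 2906 normalised counts in the water + PBS mice and at 3150, 3448 and 3633 in the water + Dex mice, with no overlap. The LFC of Slc51b in water mice was 0.47 ± 0.22 (adjusted p = 0.238). The ZnSO4 + PBS mice had 2294, 1834 and 1480, and the ZnSO4 + Dex mice 2620, 1509 and 2912, which overlapped, with an LFC of 0.33 ± 0.22 (adjusted p = 0.396). For Slc51a the water + PBS mice had 7075, 7042 and 8885 normalised counts and the water + Dex mice 7545, 8020 and 8245. The ZnSO4 + PBS mice had 9900, 7565 and 7170, and the ZnSO4 + Dex mice 8289, 5412 and 9769. All these groups of Slc51a overlapped, and the fold under Dex was 1.04 in water mice (95% interval 0.768 to 1.39) and 0.953 in ZnSO4 mice (0.707 to 1.28).

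Nr1h4, the gene of FXR itself, rose after Dex by less than the cut-off on size. The 3 water + PBS mice had 2932, 2202 and 2432 normalised counts and the 3 water + Dex mice 3810, 4262 and 3972. The ZnSO4 + PBS mice had 2137, 2250 and 2379, and the ZnSO4 + Dex mice 4128, 2985 and 3826. Dex and PBS mice did not overlap in either water. The LFC of Nr1h4 was 0.67 ± 0.13 in water mice (1.59-fold, 95% interval 1.31 to 1.94, adjusted p = 0.00609) and 0.69 ± 0.13 in ZnSO4 mice (1.62-fold, 1.33 to 1.97, adjusted p = 0.00382). Both adjusted p passed 0.05. In ZnSO4 mice an LFC of 0.8 was passed without ZnSO4 + Dex replicate 2, at 0.82 (adjusted p = 0.000650), without both libraries that stood apart, also at 0.82 (adjusted p = 0.00167), and with counts scaled to the enterocyte markers, at 0.92 (adjusted p = 0.00575).

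**Figure D2:**
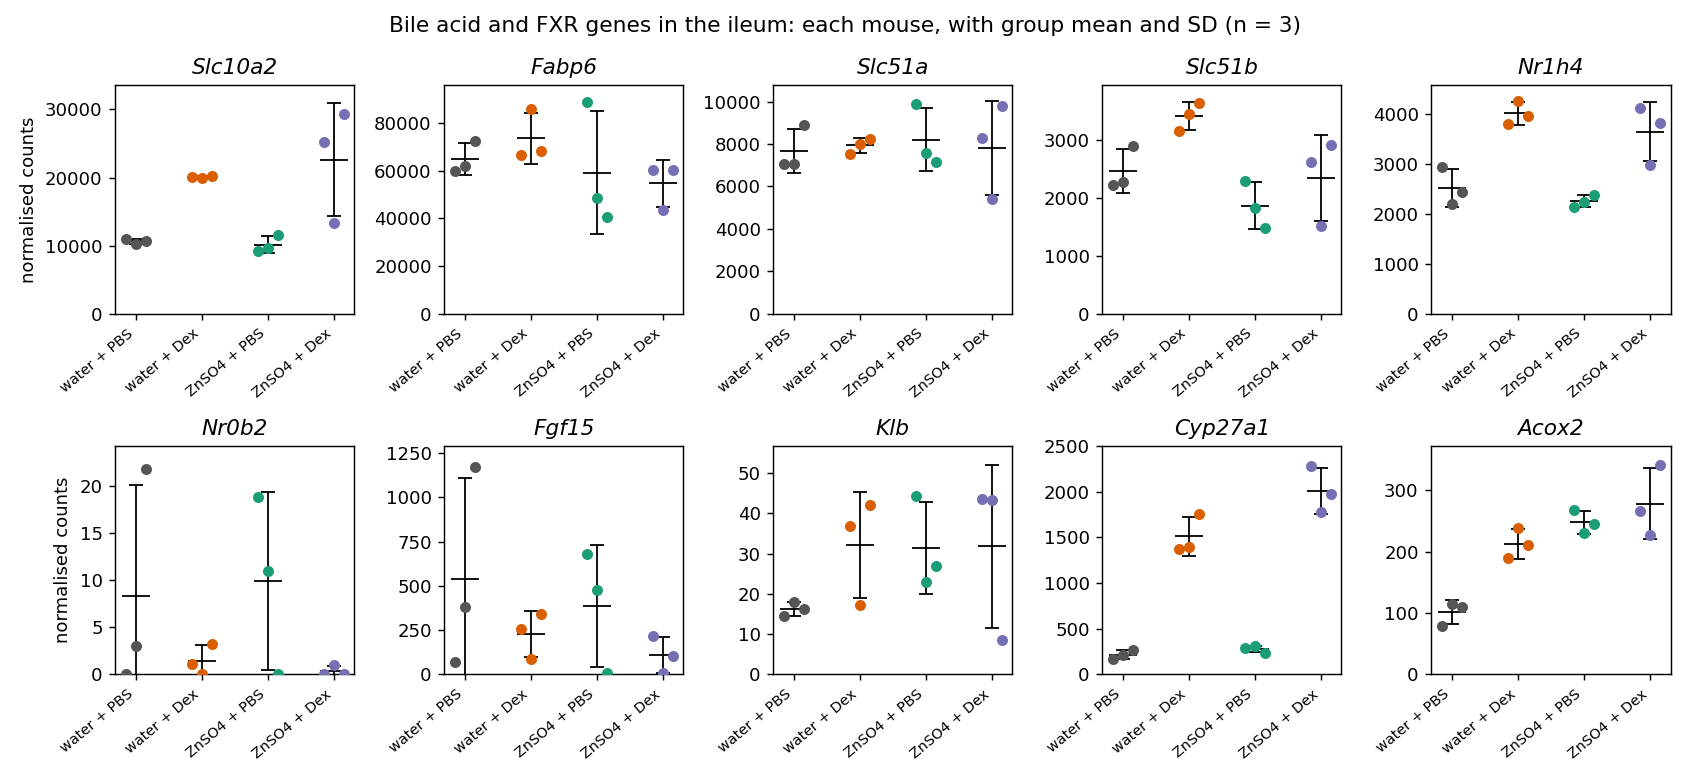
Normalised counts of the 10 genes in each of the 12 mice, 1 panel per gene with its own axis from 0, with 3 points per group and the group mean with its SD (bars that would go below 0 end at the axis). The Dex groups of Slc10a2, Nr1h4 and Cyp27a1 stand above both PBS groups, Acox2 is lowest in water + PBS, at 79.8 to 115 normalised counts, and Fgf15 and Nr0b2 spread within each group.

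The genes that carry the FXR signal onward varied widely within groups. SHP (Nr0b2) was at the edge of detection, with 0, 3 and 23 reads in the water + PBS mice, 1, 0 and 3 in the water + Dex mice, 20, 12 and 0 in the ZnSO4 + PBS mice and 0, 1 and 0 in the ZnSO4 + Dex mice. A count of 0 allows up to 3 reads, so that no fold was formed for Nr0b2. Its adjusted p was 0.385 for Dex in water mice and 0.150 in ZnSO4 mice, and both PBS groups held a mouse at 0 beside a mouse with 20 reads or more. Fgf15, the hormone sent to the liver, stood at 70.0, 380 and 1170 normalised counts in the water + PBS mice and at 255, 87.5 and 341 in the water + Dex mice. The ZnSO4 + PBS mice had 680, 477 and 9.26, and the ZnSO4 + Dex mice 215, 8.65 and 105. The highest mouse thus exceeded the lowest by 135-fold, and the groups overlapped in every comparison. The LFC of Fgf15 under Dex was -1.24 ± 1.19 in water mice (95% interval -3.85 to 1.36, adjusted p = 0.588) and -1.84 ± 1.24 in ZnSO4 mice (-4.55 to 0.88, adjusted p = 0.394). Without water + PBS replicate 3, the mouse with 1170, the LFC of Fgf15 in water mice was 0.020.

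Klb, the FGF15 coreceptor that is known from the liver, was present at 8 to 47 reads per library. Its levels were 14.6, 18.1 and 16.2 normalised counts in the water + PBS mice and 36.8, 17.3 and 42.1 in the water + Dex mice, where 1 Dex mouse lay within the PBS range (LFC 0.97 ± 0.52, adjusted p = 0.308). In the ZnSO4 + PBS mice Klb stood at 44.3, 22.9 and 26.9 and in the ZnSO4 + Dex mice at 43.5, 43.2 and 8.54 (LFC 0.03 ± 0.49, adjusted p = 0.981). The sum of 5 adipocyte (fat cell) markers was 48.8, 119 and 9.02 CPM in water + PBS replicates 1 to 3. In the same order it was 144, 67.7 and 271 CPM in water + Dex and 245, 34.3 and 98.7 CPM in ZnSO4 + PBS. In ZnSO4 + Dex it was 33.4, 196 and 0.282 CPM. The part of fat cells in the values of Klb was not tested.

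Cyp27a1, the sterol 27-hydroxylase, showed the steepest rise of the 10 genes. The 3 water + PBS mice had 164, 217 and 264 normalised counts and the water + Dex mice 1377, 1394 and 1761. In the ZnSO4 + PBS mice the levels were 288, 308 and 240, and in the ZnSO4 + Dex mice 2279, 1774 and 1975. The Dex and PBS ranges lay far apart in both waters. The LFC of Cyp27a1 was 2.81 ± 0.18 in water mice (7.02-fold, 95% interval 5.37 to 9.18, adjusted p = 2.5e-06) and 2.85 ± 0.18 in ZnSO4 mice (7.21-fold, 5.52 to 9.40, adjusted p = 1.94e-06), and it was called in all 12 fits that left out 1 library. CYP27A1 is also made in hepatocytes and macrophages. The hepatocyte marker sum was 61.7, 49.9 and 521 CPM in water + Dex replicates 1 to 3, beside 1377, 1394 and 1761 normalised counts of Cyp27a1, and 39.6 to 104 CPM in the water + PBS mice. In ZnSO4 + Dex replicates 1 to 3 it was 80.7, 274 and 16.2 CPM, beside 2279, 1774 and 1975 of Cyp27a1, and 14.2 to 32.6 CPM in the ZnSO4 + PBS mice. The highest Cyp27a1 in water mice thus stood in the library with the highest hepatocyte marker sum, and in ZnSO4 mice it did not. Of the 7 hepatocyte markers tested, 1 was itself called upregulated by Dex in ZnSO4 mice and 0 in water mice. All 7 nevertheless had an LFC above 0 under Dex, whichever water was drunk. The middle value of these LFCs was 2.66 for the mice on ZnSO4 and 1.94 for those on normal water. The sum of 7 macrophage markers, none at 0 in all libraries, overlapped in water mice, at 243 to 321 CPM after PBS and 278 to 324 CPM after Dex. In ZnSO4 mice it was higher after Dex with no overlap, at 260 to 301 CPM against 215 to 239 CPM. The part of either cell type in the result of Cyp27a1 was not tested.

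Acox2, the peroxisomal oxidase, responded to either treatment. The water + PBS mice had 79.8, 115 and 110 normalised counts, and the other groups stood higher, at 190, 239 and 211 in water + Dex, 268, 231 and 245 in ZnSO4 + PBS and 265, 228 and 342 in ZnSO4 + Dex. No mouse of these 3 groups came down to the water + PBS range. With Dex in water mice the LFC of Acox2 was 1.06 ± 0.18 (2.09-fold, 95% interval 1.60 to 2.73, adjusted p = 0.00243). With Dex in ZnSO4 mice the groups overlapped and the LFC was 0.17 ± 0.17 (1.12-fold, 0.869 to 1.45, adjusted p = 0.588). With counts scaled to the enterocyte markers, the Dex call in water mice was lost, at an LFC of 0.88 and an adjusted p of 0.0826. Averaged over water and ZnSO4 mice, the Dex effect on Acox2 was an LFC of 0.62 (adjusted p = 0.00348), short of the cut-off on size.

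ZnSO4 alone left most of the axis without a call. Of the 10 genes, 1 was upregulated by ZnSO4 in PBS mice, beside 0.747% of all genes, and none was downregulated in edgeR or DESeq2, beside 0.954%. At an unadjusted p under 0.05 edgeR likewise gave 1 gene, beside 19.8% of all genes. That gene was Acox2, with the values given above (LFC 1.28 ± 0.18, 2.43-fold, 95% interval 1.86 to 3.17, adjusted p = 0.00273), and the call held in all 12 fits that left out 1 library. The hepatocyte marker sum was lower in the ZnSO4 + PBS mice, at 14.2 to 32.6 CPM, than in the water + PBS mice. That sum holds Tat, which the paper lists among the genes lowered by zinc in the ileum. Of the 7 hepatocyte markers tested, 1 was called downregulated here and 1 had an LFC above 0, with a median LFC of -2.46. The part of liver cells in this sum and in the result of Acox2 was not tested. The distal enterocyte markers, 10 genes without the bile acid genes, summed to 10447 to 11845 CPM in the ZnSO4 + PBS mice against 7488 to 9584 CPM in the water + PBS mice, and their part in the result of Acox2 was not tested. Both calls of Acox2 were made against the same water + PBS mice. For Klb, the ZnSO4 + PBS mice all stood above the water + PBS mice (LFC 0.94 ± 0.52, adjusted p = 0.350). The paper's appendix lists Klb, like Acox2, as raised by zinc and by Dex at its cut-offs. No fit made here called Klb for ZnSO4 in PBS mice or for Dex in water mice. Cyp27a1 had an LFC of 0.37 ± 0.17 (adjusted p = 0.261) and Slc51b one of -0.40 ± 0.22 (adjusted p = 0.356), both with overlapping mice. The intervals of the fold were 0.677 to 1.34 for Slc10a2, 0.603 to 1.39 for Fabp6, 0.795 to 1.44 for Slc51a and 0.735 to 1.09 for Nr1h4. Fgf15 gave an LFC of -0.48 ± 1.16, which was 0.79 without water + PBS replicate 3 and 0.10 without ZnSO4 + PBS replicate 3, the mouse with 9.26 normalised counts.

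Among Dex mice, ZnSO4 changed none of the 10 genes by the same cut-offs, in edgeR or in DESeq2, beside 0.696% of all genes upregulated and 1.2% downregulated. At an unadjusted p under 0.05 edgeR gave 3 genes, Cyp27a1, Slc51b and Acox2, beside 19.1% of all genes. Every ZnSO4 + Dex mouse had more Cyp27a1 than every water + Dex mouse, the nearest values being 1774 and 1761 normalised counts (LFC 0.41 ± 0.16, 1.33-fold, 95% interval 1.04 to 1.70, adjusted p = 0.188). Slc51b was lower in every ZnSO4 + Dex mouse (LFC -0.54 ± 0.22, adjusted p = 0.212). The same held for Fabp6 (LFC -0.43 ± 0.27, adjusted p = 0.441). Acox2 overlapped (LFC 0.38 ± 0.17, adjusted p = 0.246). Without ZnSO4 + Dex replicate 2 the LFC of Slc51b was -0.30. With counts scaled to the enterocyte markers, Cyp27a1 and Acox2 were called upregulated, at an LFC of 0.97 and 0.91, and Fabp6 changed sign to 0.10. That scaling moved the median LFC of all genes to 0.60 in this comparison.

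**Figure D3:**
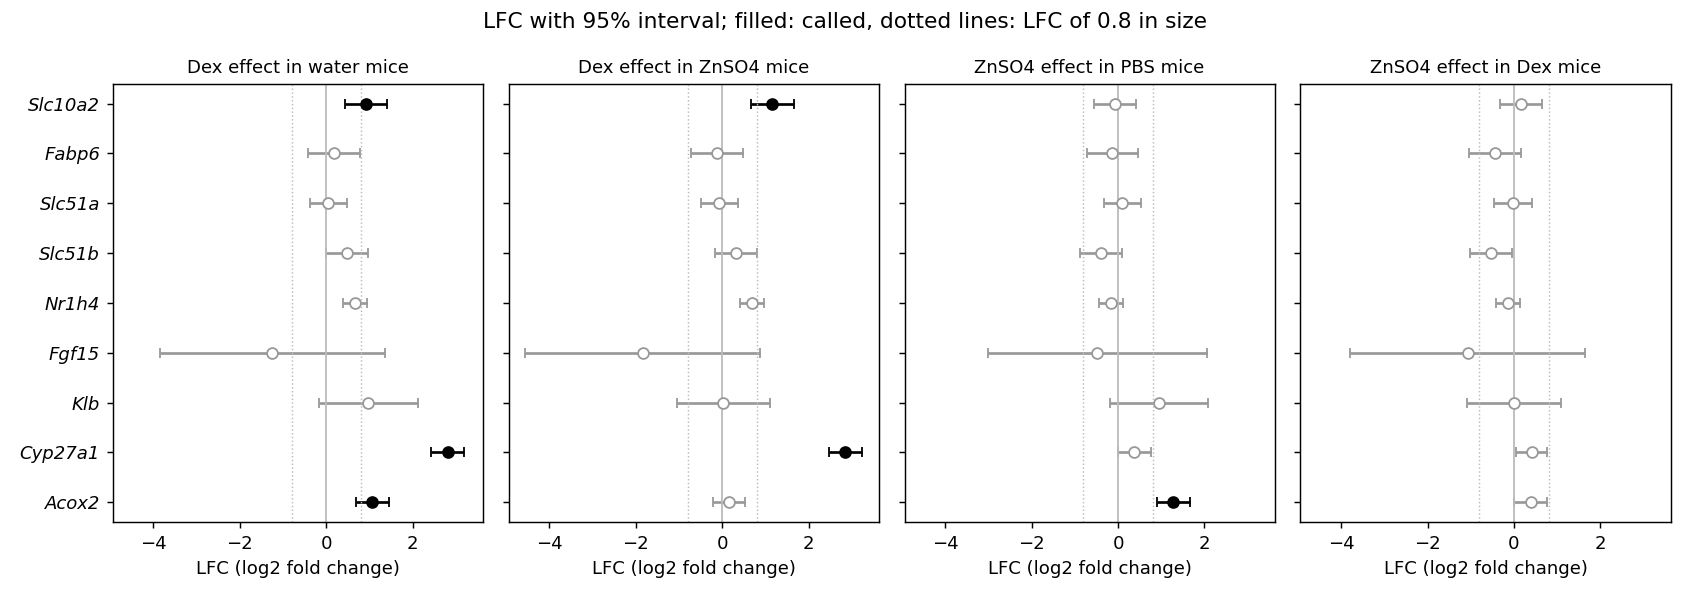
LFC of 9 genes with its 95% interval in the 4 comparisons, 1 panel per comparison on a shared axis, with filled points for called genes and dotted lines at an LFC of 0.8 in size (Nr0b2, with too few reads for a fold, is left out). Cyp27a1 lies at 2.81 and 2.85 in the Dex panels, Acox2 is called for Dex in water mice and for ZnSO4 in PBS mice, and the intervals of Fgf15 are the widest.

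The interaction asks whether Dex acted differently in ZnSO4 and in water mice. No gene of the axis passed it in edgeR or DESeq2, and neither did any other gene in edgeR, so that the share called was 0% of the genes tested. At an unadjusted p under 0.05 edgeR gave 794 genes (4.98%), 1 of which was in the axis. That was Acox2, whose Dex effect was smaller in ZnSO4 mice by an LFC of -0.90 ± 0.24 (95% interval -1.43 to -0.36, adjusted p = 0.952). For Cyp27a1 the difference was 0.04 ± 0.24 (-0.48 to 0.56), for Nr1h4 0.02 ± 0.18 (-0.38 to 0.42) and for Slc10a2 0.24 ± 0.32 (-0.45 to 0.94). The Dex effects on Slc10a2, Nr1h4 and Cyp27a1 were therefore not shown to differ between the waters, within these intervals.

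Around the axis stand 83 further genes of bile acid transport, synthesis, sensing and detoxification, of which 67 were tested. Dex upregulated 9 and downregulated 2 of them in water mice and upregulated 6 and downregulated 4 in ZnSO4 mice. ZnSO4 downregulated 3 in PBS mice and upregulated 1 and downregulated 2 in Dex mice. Of all genes tested, Dex upregulated 2.79% and downregulated 1.64% in water mice, and 3.41% and 2.4% in ZnSO4 mice. For ZnSO4 these shares were 0.747% and 0.954% in PBS mice and 0.696% and 1.2% in Dex mice. The same shares stand beside the counts of each list below. The median LFC of the 67 genes was 0.02 and 0.03 for Dex and 0.07 and -0.02 for ZnSO4, beside -0.01 and 0.01 and again -0.01 and 0.01 for all genes tested.

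Among 23 tested partners of FXR, cofactors and ileal regulators, 4 rose and 2 fell with Dex in water mice, and 2 rose and 3 fell in ZnSO4 mice. Nr3c1, the gene of the glucocorticoid receptor, fell, with 2757 to 3037 normalised counts in the water + PBS mice and 1407 to 1624 in the water + Dex mice (LFC -0.96, adjusted p = 1.56e-05) and an LFC of -1.32 in ZnSO4 mice (adjusted p = 1.49e-06). Ppara, the fatty acid sensing receptor, rose in both waters (LFC 1.81 and 2.00), as did Hnf4g, a nuclear receptor of the gut epithelium (LFC 1.39 and 1.43). Cdx2, the homeobox factor of intestinal identity, fell (LFC -0.82 and -0.99), and its LFC in water mice was -0.75 without water + PBS replicate 1, short of the cut-off. Ppargc1a, a coactivator of nuclear receptors, rose in water mice (LFC 0.93). Each of these had an adjusted p under 0.05 and no overlap between Dex and PBS mice. Gata6 also rose in water mice (LFC 1.06), and Hnf4a fell in ZnSO4 mice (LFC -0.85).

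Among 11 tested carriers and transporters, the call fell to Slc9a3, the sodium-proton exchanger of the brush border, which is no bile acid carrier. It stood at 270 to 734 normalised counts in the water + PBS mice, 1875 to 2152 in water + Dex, 73.5 to 97.9 in ZnSO4 + PBS and 635 to 1257 in ZnSO4 + Dex. Slc9a3 thus rose with Dex in water mice (LFC 2.02) and in ZnSO4 mice (LFC 3.55) and fell with ZnSO4 in PBS mice (LFC -2.47, adjusted p = 0.00322). The median LFC of the 11 genes was 0.25 with Dex in water mice and -0.30 in ZnSO4 mice.

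Among 9 tested genes of conjugation and detoxification, 3 rose with Dex in water mice (Cyp2b10 with an LFC of 3.90, Cyp3a13 with 1.09 and Sult2b1 with 0.89) and 3 in ZnSO4 mice (Cyp2b10 with 3.88, Sult2b1 with 0.82 and Il18 with 0.87). ZnSO4 lowered Il18 and Nos2 in PBS mice (LFC -1.35 and -1.82) and in Dex mice (LFC -1.25 and -2.20). Both are immune genes of the epithelium, for an interleukin and for the inducible nitric oxide synthase, and stand in the list as genes linked to FXR and not as enzymes of bile acid detoxification. Without both libraries that stood apart the adjusted p of Il18 in Dex mice was 0.0561.

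Among 7 tested receptors and helpers, Fgfr1 rose with Dex in water mice (LFC 0.81) and Fgfr4, the receptor of FGF15, rose with ZnSO4 in Dex mice, from 43.5 to 52.9 normalised counts in water + Dex to 81.9 to 120 in ZnSO4 + Dex (LFC 1.09, adjusted p = 0.00698). Without both libraries that stood apart the adjusted p of Fgfr4 was 0.0690. Of the 17 tested enzymes and carriers of bile acid synthesis beside Cyp27a1 and Acox2, Stard4, a cholesterol carrier, fell with Dex in ZnSO4 mice (LFC -1.09, adjusted p = 2.47e-05).

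Within groups, the genes of the axis did not move as 1 block. The log2 deviations of Slc51a and Slc51b from their group means ran together over the 12 libraries (r = 0.98) and over the 11 libraries without ZnSO4 + Dex replicate 2 (r = 0.95). Slc51b also ran with Fabp6 (r = 0.79 and 0.83) and with Fgf15 (r = 0.80 and 0.78), and Fgf15 with Nr0b2 (r = 0.76 and 0.95). Cyp27a1, which is not among the FXR targets named above, ran with Fgf15 (r = 0.82 and 0.80) and with Nr0b2 (r = 0.77 and 0.86). The share of all gene pairs with such values was not counted. Slc10a2 did not keep such a relation: with Slc51b it had r = 0.63 over 12 libraries and r = -0.50 over 11, and with Fgf15 r = 0.23 and r = -0.78. These values describe the libraries. The genes of each pair share their library, its depth and its cell makeup, and each deviation is from a mean of 3.

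The mice at the ends show how the levels spread. ZnSO4 + PBS replicate 1 had the highest Fabp6, 88620 normalised counts, Slc51a, 9900, and Klb, 44.3, of the 12 mice. It also had the highest Slc51b, 2294, Acox2, 268, Fgf15, 680, and Nr0b2, 20 reads, of its group. ZnSO4 + PBS replicate 3 had the lowest Fabp6, Slc51a, Slc51b, Fgf15 and Cyp27a1 of that group, at 40672, 7170, 1480, 9.26 and 240. It had no read of Nr0b2 and the highest Slc10a2, 11529, and Nr1h4, 2379, of the group. The share of all tested genes at the ends in these mice was not counted. The enterocyte marker sums of these mice were 19367 and 18399 CPM. In ZnSO4 + Dex replicate 2, 8 of the 10 genes were at the lowest level of their group, together with the enterocyte markers. The share of all tested genes that were lowest in this library was not counted, so the number does not set the axis apart.

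**Figure D4:**
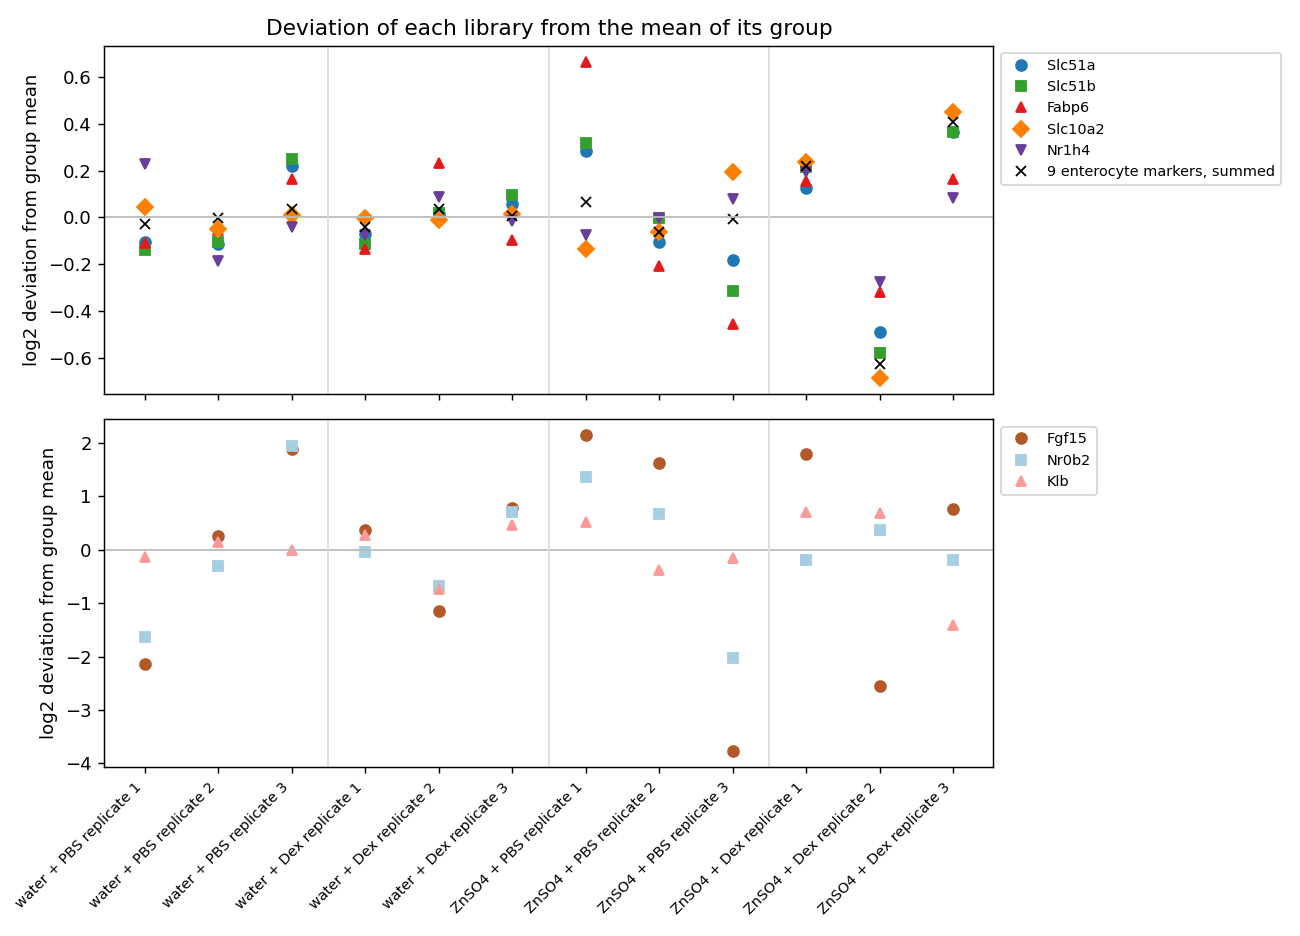
Log2 deviation of each of the 12 libraries from the mean of its group, for Slc51a, Slc51b, Fabp6, Slc10a2, Nr1h4 and the sum of 9 enterocyte markers (upper panel) and for Fgf15, Nr0b2 and Klb (lower panel, wider axis). All series of the upper panel lie below 0 in ZnSO4 + Dex replicate 2, where the marker sum was 10290 CPM, and Slc51a, Slc51b and Fabp6 spread around level markers in the ZnSO4 + PBS mice.

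Over all 12 libraries, the tested gene most like a gene of the axis in log2 CPM was Inpp4a for Cyp27a1 (Pearson's r = 0.996), Card14 for Slc51b (r = 0.973), F2rl1 for Slc10a2 (r = 0.971) and Lysmd3 for Slc51a (r = 0.953). For Acox2 it was Guca2a, which encodes the gut peptide guanylin (r = 0.943), for Fabp6 Dnm1 (r = 0.941), for Fgf15 Dapp1 (r = 0.923), for Klb Npy1r (r = 0.906) and for Nr0b2 Mafg (r = 0.904). Each was the closest of about 14970 genes, so that a high r is built into the choice, and the libraries carry the same treatments. Without ZnSO4 + Dex replicate 2, r was 0.996 for Inpp4a and Cyp27a1, 0.986 for F2rl1 and Slc10a2 and 0.884 for Dapp1 and Fgf15. Among the genes of the axis, Slc10a2 and Nr1h4, which both rose with Dex, had r = 0.93 over the 12 libraries and r = 0.73 within groups, and without ZnSO4 + Dex replicate 2 the value within groups was 0.32.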

How the data were processed

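Ileal RNA of 12 mice (4 groups of 3) was sequenced in stranded single-end libraries. The authors trimmed the reads, mapped them to mm10 with HISAT2 2.0.4 and counted uniquely mapped reads per gene with featureCounts, and deposited these raw counts. The annotation release and strand setting are not given in the sources used here. Symbols and exon lengths came from GENCODE M21. Genes with too few reads were removed (filterByExpr, minimum count 10), which kept 15938 genes and 99.8% of counts. All 12 libraries entered 1 edgeR quasi-likelihood fit with a mean per group (edgeR 4.0.16, R 4.3.3, limma 3.58.1, TMM factors), and p-values were adjusted by Benjamini-Hochberg over all genes tested. The common biological coefficient of variation was 0.191. All tests were two-sided. An exact permutation test of 3 against 3 cannot go below 0.1 and was not used. DESeq2 1.42.0 (Wald test), other scalings, filters and leaving out each library were alternatives. The genes of the axis, the gene lists and the markers were chosen with earlier results of these data known. Genes named from the lists are, in each comparison, up to 6 called genes with the lowest adjusted p, and the other called genes are given by their LFC. 1 result is not reported here. The procedure was tested on simulated data. Stretches of 31 bases of these genes were shared with other genes at no more than 1.7%, and reads with more than 1 position were left out by the authors. Replicate pairs differed by more than sampling noise (chi-square per degree of freedom 8.23 to 45.4). No comparison in the table by the authors was used.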

Additional observations from a re-analysis of the deposited data

How the results depend on the processing

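With DESeq2, RLE or upper-quartile factors, either other filter, no LFC cut-off and every leave-one-out fit, the number of the 10 genes called stayed within 1.5 times the reported one. That bound lets a count of 3 become 2. For Dex in water mice, Slc10a2 was called in only 6 of the 12 leave-one-out fits. Tested against an LFC of 0.8 (glmTreat), 1 gene remained for Dex in water mice, 1 in ZnSO4 mice (Cyp27a1 in both) and 0 for ZnSO4 in PBS mice. With only the compared groups in the fit, 1 gene remained for Dex in ZnSO4 mice, as Slc10a2 had an adjusted p of 0.0547. Scaled to the enterocyte markers, 1 gene was called for Dex in water mice and 2 for ZnSO4 in Dex mice. That scaling and the fit without both libraries that stood apart were chosen after seeing the data, and the scaling moved the median LFC of all genes by -0.20 (Dex in water mice), 0.29 (Dex in ZnSO4 mice), 0.11 (ZnSO4 in PBS mice) and 0.60 (ZnSO4 in Dex mice). With the replicate number as a replicate block, 3, 2, 1, 0 and 0 genes were called, as without it. Libraries of 1 number did not deviate together (median r = -0.06 over 18 pairs, lowest -0.36, and 9 of 36 best matches had the same number), so the numbers were not taken to pair mice. Of the 83 further genes, 11, 10, 3 and 3 were called in the 4 simple comparisons. These counts became 19, 21, 7 and 6 with no LFC cut-off and 3, 5, 1 and 0 with glmTreat. For ZnSO4 in PBS mice DESeq2, the filter at 1 count, the enterocyte scaling and leaving out ZnSO4 + PBS replicate 2 gave 5 each. For ZnSO4 in Dex mice the enterocyte scaling gave 11 and the fit without both libraries 1.

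Of 1173 LFC values under the alternatives, 40 changed sign, and none of these was called. For ZnSO4 in Dex mice, upper-quartile factors gave 0.016 for Slc51a and 0.046 for Klb, and the fit of the compared groups alone 0.0023 for Klb. Averaged over both strata, Slc51a had -0.010 for Dex and Slc10a2 0.049 for ZnSO4, and Acox2 lost its call for Dex at 0.62. Without both libraries that stood apart, Dex in ZnSO4 mice gave 0.026 for Fabp6, 0.14 for Slc51a and -0.26 for Klb, and ZnSO4 in Dex mice gave 0.21 for Slc51a. Scaled to the enterocyte markers, Dex in water mice gave -0.0015 for Fabp6 and -0.13 for Slc51a, Dex in ZnSO4 mice 0.12 for Fabp6 and 0.11 for Slc51a, ZnSO4 in PBS mice 0.053 for Slc10a2, and ZnSO4 in Dex mice 0.10 for Fabp6, 0.47 for Slc51a, 0.40 for Nr1h4 and 0.67 for Klb. Leaving out 1 library at a time, Slc51a ranged from -0.0086 to 0.17 for Dex in water mice, -0.26 to 0.14 for Dex in ZnSO4 mice, -0.058 to 0.22 for ZnSO4 in PBS mice and -0.21 to 0.19 for ZnSO4 in Dex mice. Fabp6 ranged from -0.33 to 0.29 for Dex in ZnSO4 mice and -0.54 to 0.082 for ZnSO4 in PBS mice, and Fgf15 from -1.77 to 0.020 for Dex in water mice and -1.15 to 0.79 for ZnSO4 in PBS mice. Klb ranged from -0.26 to 0.47 for Dex in ZnSO4 mice and -0.30 to 0.43 for ZnSO4 in Dex mice, Acox2 from -0.0081 to 0.29 for Dex in ZnSO4 mice, and Slc10a2 from -0.061 to 0.44 for ZnSO4 in Dex mice. The cause was not tested. With 3 mice per group, the wide intervals of Fgf15 and Klb and the few reads of Nr0b2 limit what can be said of these genes.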
